A study of Homo sapiens with 9 samples.

Results

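The mitochondrial ribosomal protein genes were taken as the genes whose official symbol starts with MRPL or MRPS and a number, and whose probe sets on the array were annotated to that 1 symbol alone. The rule left 164 of 49293 probe sets, which measure 74 of 18132 genes, of which 47 carry large subunit symbols (MRPL) and 27 carry small subunit symbols (MRPS). Antisense and pseudogene symbols were not counted. RefSeq lists 77 protein-coding symbols of this form, and the other 3, MRPL23, MRPL53 and MRPS24, have probe sets that carry more than 1 gene entry. All 74 genes were tested, since no filter on low values was used. Y79 is a human retinoblastoma line that grows in suspension, and 9 PrimeView arrays measured its RNA in 3 groups of 3. The GNPs-HDM2 cells had received gold nanoparticles conjugated to an HDM2 peptide, the GNPs cells had received gold nanoparticles without it, and the Control cells were untreated. The series was made to study a peptide conjugate aimed at the binding of p53 to HDM2, the human MDM2 protein that marks p53 for destruction. The labels used here name no dose, no time and no separate cultures. The spread behind each p-value is therefore that between arrays, and it may be technical.

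Mitochondrial ribosomes translate the few messages that mitochondrial DNA encodes, all of them for subunits of the respiratory chain and the ATP synthase. Their RNAs come from mitochondrial DNA, but every protein of the particle is encoded in the nucleus, made in the cytosol and imported. Some of these proteins descend from bacterial ribosomal proteins, and others have no bacterial counterpart and coat the particle where bacterial ribosomal RNA has been lost. Photoreceptors, the cells that retinoblastoma cells resemble in part, hold many mitochondria.

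Each deposited value is a logarithm, read here as log2, of the signal of a probe set against a baseline of its own. The values therefore give differences between arrays and no level of a gene against another. Across the 18132 genes the GNPs-HDM2 arrays stood apart from the other 6. The median gene lay 0.25 above Control, and the spike-in hybridization controls averaged 1.68 ± 0.30 on the GNPs-HDM2 arrays, -0.12 ± 0.37 on the GNPs arrays and -0.38 ± 0.05 on the Control arrays (SD, n = 3 each). The GAPDH 3 prime minus 5 prime difference, a sign of RNA or labelling quality, was 0.54 ± 0.13 on the GNPs-HDM2 arrays, -0.07 ± 0.07 on the GNPs arrays and 0.04 ± 0.04 on the Control arrays. For ACTB it was 0.26 ± 0.02, -0.13 ± 0.15 and 0.16 ± 0.27 in the same order. Control replicate 2, at 0.48, lay above every GNPs-HDM2 array in ACTB. The part of these shifts in the results below was not tested. Of 7 photoreceptor and retinoblastoma markers, 4 had a probe set of bright baseline (CRX, OTX2, PDE6H and MYCN), as had GLUL and VIM of 3 Mueller glia markers. None of the 3 pigment epithelium, 4 fibroblast and 3 measured blood markers had one. No batch is named in the labels or the file, and the number of arrays limits the precision of every value.

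With the HDM2 peptide conjugate, most mitochondrial ribosomal protein genes were lower than in untreated cells. Of the 74 genes, 46 fell, 2 rose and 26 did not pass the test (limma, adjusted p under 0.05 over all genes). Over all genes 25.1% were called lower and 33.1% higher. The median change of the 74 genes was -1.04 on the log2 scale, with a range of -3.26 to 0.83, beside 0.25 over all genes, and 67 of the 74 changes were below 0. All 3 GNPs-HDM2 values lay below all 3 Control values in 40 of the 74 genes, against 23.9% of all genes, and above them in 4, against 36%. The spread between GNPs-HDM2 arrays was wide, with a median SD within the group of 0.672 over the members, against 0.08 for GNPs and 0.203 for Control arrays. A fit that gave each group its own weight kept 44 of the 46 falls and 1 of the 2 rises. In bulk RNA, less of a message per cell and fewer cells that hold it cannot be told apart.

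On each array, the median over the 74 genes was -1.15, -1.69 and -0.32 on GNPs-HDM2 replicates 1 to 3. The medians on the GNPs arrays were 0.18, 0.07 and 0.16, and those on the Control arrays were -0.05, -0.06 and 0.07. The GNPs-HDM2 medians were all below those of the other 6 arrays, and that of replicate 3 was the nearest to them. Replicate 2 was the lowest GNPs-HDM2 array in 61 of 74 genes (82.4%, against 32.5% of all genes), and replicate 3 was the highest in 69 (93.2%, against 37.5%). This order is not particular to the members. All probe sets of bright baseline had medians of -1.42, -1.97 and -0.32 on GNPs-HDM2 replicates 1 to 3, and 60.4% of the member probe sets are bright. All probe sets of middle and of dim baseline had the opposite order. Without replicate 3 the median change from Control was -1.43. Without replicate 2 the falls numbered 36, where 3770 of all 18132 genes were lower.

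**Figure D1:**
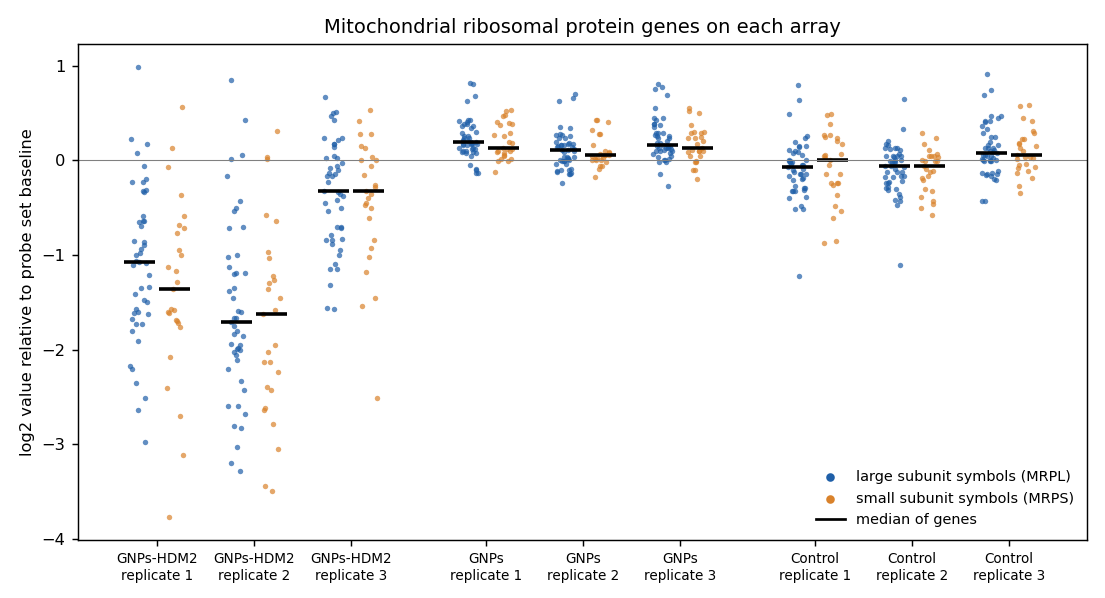
Values of the 47 MRPL and 27 MRPS genes on each of the 9 arrays (vertical axis, log2 relative to the baseline of each probe set; points are genes and black lines are medians over genes). The GNPs-HDM2 arrays lie lowest and spread the most, with medians over all 74 genes of -1.15, -1.69 and -0.32, while the GNPs and Control medians lie between -0.06 and 0.18.

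As deposited, falls made up most of the calls in both subunits, where 25.1% of all genes were called lower and 33.1% higher. Among the 47 MRPL genes 29 fell and 1 rose, with a median change of -0.98, and among the 27 MRPS genes 17 fell and 1 rose, with a median of -1.10. The large minus small difference of the medians was 0.29, -0.09 and -0.02 on GNPs-HDM2 replicates 1 to 3, which is 0.06 ± 0.20, against 0.05 ± 0.01 for GNPs and -0.02 ± 0.05 for Control (SD, n = 3 arrays each). The sign of the difference varied between the GNPs-HDM2 arrays. The names do not match the structure in every case, since MRPS30 and MRPS18A code for proteins of the large subunit. With both moved there, the large subunit had 30 falls and 2 rises among 49 genes (median -0.98) and the small subunit 16 falls and no rise among 25 (median -1.10).

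The genes can also be split by whether the protein sits where a bacterial ribosome has a counterpart. MRPS18A and MRPS18B, though relatives of bacterial S18, sit at places without one and are counted so. Of 29 large subunit genes with a bacterial counterpart 19 fell and 1 rose (median -1.02), and of 20 without one 11 fell and 1 rose (median -0.90). In the small subunit the counts were 9 falls among 15 genes with a counterpart (median -1.16) and 7 among 10 without one (median -1.07), with no rise in either. Over all genes 25.1% were called lower and 33.1% higher. No difference between the groups with and without a counterpart was tested.

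The deepest change was in MRPS30, whose protein, despite its name, belongs to the large subunit and has no bacterial counterpart. MRPS30 stood at -3.77, -3.49 and -2.51 on the GNPs-HDM2 arrays, at 0.06, 0.06 and -0.01 on the GNPs arrays, and at 0.48, -0.12 and -0.35 on the Control arrays. All 3 GNPs-HDM2 values were far below the other 6. It fell by 3.26 (standard error 0.32, adjusted p = 5.22e-04), which is 9.6-fold on this scale. MRPL39, another large subunit protein without a bacterial counterpart, read -2.98, -3.03 and -1.32 on the GNPs-HDM2 arrays, against -0.02, 0.13 and -0.13 on the Control arrays. These groups did not overlap, and MRPL39 fell by 2.44 (error 0.38, adjusted p = 0.00223).

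The promoters of MRPS30 and MRPL19, another gene with a deep fall, and of the 2 genes that rose, MRPS18A and MRPL20, are shown from 250 bases before to 50 bases after the start of the gene, because they come from the ends of the range of change. MRPL39 is not shown, since the window listed for it starts inside the gene. The sequences are from RefSeq, build GRCh38.p14, 5′ to 3′ on the strand of the gene. MRPS30 lies at chr5:44808697-44808996 on the plus strand, MRPL19 at chr2:75646533-75646832 on the plus strand, MRPS18A at chr6:43687742-43688041 on the minus strand and MRPL20 at chr1:1407244-1407543 on the minus strand. Capitals mark matches, on either strand, to the short letter strings CCGGAAG (the core bound by ETS factors such as NRF2/GABP) and AAGATGG (bound by YY1).
MRPS30: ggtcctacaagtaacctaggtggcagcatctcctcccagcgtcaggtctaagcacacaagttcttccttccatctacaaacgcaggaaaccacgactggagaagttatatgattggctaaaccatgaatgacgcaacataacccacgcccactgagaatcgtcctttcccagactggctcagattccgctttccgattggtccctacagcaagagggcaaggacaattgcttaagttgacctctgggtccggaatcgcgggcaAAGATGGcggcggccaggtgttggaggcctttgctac
MRPL19: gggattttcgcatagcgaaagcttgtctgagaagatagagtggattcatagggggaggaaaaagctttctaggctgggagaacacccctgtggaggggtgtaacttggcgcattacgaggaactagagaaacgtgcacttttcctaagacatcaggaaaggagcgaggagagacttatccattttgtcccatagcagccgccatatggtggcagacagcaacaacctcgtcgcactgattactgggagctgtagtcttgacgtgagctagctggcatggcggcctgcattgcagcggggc
MRPS18A: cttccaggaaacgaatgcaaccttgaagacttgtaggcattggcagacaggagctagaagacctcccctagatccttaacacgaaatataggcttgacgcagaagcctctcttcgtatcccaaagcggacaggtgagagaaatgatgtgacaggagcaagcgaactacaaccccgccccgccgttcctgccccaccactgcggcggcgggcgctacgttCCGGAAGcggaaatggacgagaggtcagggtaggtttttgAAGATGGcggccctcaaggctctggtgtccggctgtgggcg
MRPL20: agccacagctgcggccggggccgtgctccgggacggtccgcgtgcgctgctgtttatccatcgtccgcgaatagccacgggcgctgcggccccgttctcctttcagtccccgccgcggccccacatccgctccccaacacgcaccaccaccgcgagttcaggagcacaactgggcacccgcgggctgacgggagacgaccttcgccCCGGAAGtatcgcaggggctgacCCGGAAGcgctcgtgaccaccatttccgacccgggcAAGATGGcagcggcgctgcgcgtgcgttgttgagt
The ETS string appeared in the windows of both genes that rose and in neither of the 2 genes shown that fell. These genes were picked from the ends of the range. Among 67 members with a promoter window, 28 held the ETS string, and their median change was -0.84, against -1.31 without it. A link of the string to direction was not tested. The YY1 string appeared close to the start of the gene in MRPS30, MRPS18A and MRPL20, and nowhere in the window of MRPL19.

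A further 4 genes complete the 6 deepest falls. MRPL19, a large subunit protein with a bacterial counterpart, had values of -2.64, -2.68 and -1.57 on the GNPs-HDM2 arrays, against -0.02, -0.24 and 0.45 on the Control arrays, and fell by 2.36 (error 0.30, adjusted p = 0.00107). Small subunit gene MRPS9 had values of -2.70, -2.40 and -1.54 on the GNPs-HDM2 arrays, against 0.00, -0.17 and 0.13 on the Control arrays, and fell by 2.20 (error 0.27, adjusted p = 9.91e-04). Both genes kept their groups apart. MRPS28, the mitochondrial relative of bacterial S1, read -3.11, -3.44 and -1.45 on the GNPs-HDM2 arrays, against -0.87, -0.43 and 0.29 on the Control arrays, and fell by 2.33 (error 0.47, adjusted p = 0.0047). MRPL27, whose bacterial counterpart lies near the site of peptide bond formation, read -2.35, -3.28 and -0.83 on the GNPs-HDM2 arrays, against -0.32, -0.12 and 0.25 on the Control arrays, and fell by 2.09 (error 0.49, adjusted p = 0.00765). In both, the GNPs-HDM2 values were lower than every Control value, but with replicate 3 much nearer to them. MRPS30, MRPL39, MRPL19 and MRPS9 passed the test as lower under all 21 alternative settings. MRPS28 and MRPL27 lost the call under quantile normalization alone. Not all of the 21 were able to change a call. Reading the values as natural logs rescaled every value alike. MRPS30 and MRPS9 have a single bright probe set each, so the other choices of probe sets left their values unchanged.

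Genes of the stalk and the factor-binding centre, where elongation factors dock, were called in part. MRPL12, the stalk protein, read -0.69, -1.71 and -0.03 on the GNPs-HDM2 arrays and -0.40, -0.02 and 0.47 on the Control arrays, a difference of -0.83 (error 0.38, adjusted p = 0.0797). The groups overlapped, since GNPs-HDM2 replicate 3 lay among the Control values. With the replicate number as a block MRPL12 passed the test as lower (adjusted p = 0.0392). MRPL10, which anchors the stalk, fell by 1.02 (error 0.28, adjusted p = 0.0138) with values of -1.41, -1.75 and -0.54 on the GNPs-HDM2 arrays, against 0.00, -0.22 and -0.43 on the Control arrays. It kept the call in 17 of 21 alternatives, lost it without GNPs-HDM2 replicate 1 (adjusted p = 0.0507), and turned in sign to 0.04 under quantile normalization and to 0.24 after each array was centred within classes of baseline level (bright, middle or dim), without a call in either. MRPL11, at the base of the same centre, differed by -0.33 (adjusted p = 0.268) with overlapping groups.

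MRPL44, MRPL3, MRPS16, MRPS22 and MRPS7 are members picked here as known for recessive mitochondrial disease when mutated, and all 5 fell. Falls were called in 46 of all 74 members and in 25.1% of all genes. The 5 are not a full list, and MRPL12 and MRPS25, also known for such disease, did not pass the test (adjusted p = 0.0797 and 0.121). MRPL44, whose protein has the fold of RNase III, read -1.62, -2.33 and -1.56 on the GNPs-HDM2 arrays, against 0.15, -0.36 and 0.11 on the Control arrays. MRPL44 was thus low on all 3 GNPs-HDM2 arrays, replicate 3 included, and fell by 1.80 (error 0.23, adjusted p = 0.00114). MRPL3 fell by 1.52 (adjusted p = 0.0166), MRPS16 by 1.58 (adjusted p = 0.00619), MRPS22 by 1.10 (adjusted p = 0.0234) and MRPS7 by 1.51 (adjusted p = 0.0265). The groups of MRPS22 and MRPS7 overlapped, because Control replicates 1 or 2 lay below the highest GNPs-HDM2 array. MRPS22 and MRPS7 kept the call in 13 of 21 alternatives each, and MRPL3 in 17, with -0.26 (adjusted p = 0.225) after centring within level classes. That centring gave MRPS22 0.16 (adjusted p = 0.307) and MRPS7 -0.26 (adjusted p = 0.446), while MRPL44 and MRPS16 were still called lower. MRPL3 also lost the call without GNPs-HDM2 replicate 1 (adjusted p = 0.0508) and without Control replicate 3 (adjusted p = 0.0524). MRPS16 and MRPL44 lost it under quantile normalization alone (adjusted p = 0.13 and 0.129). MRPL58, a peptidyl-tRNA hydrolase built into the large subunit, fell by 1.79 (error 0.52, adjusted p = 0.0168), with groups that overlapped at GNPs-HDM2 replicate 3.

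Other named members, most of them for small subunit proteins, varied. MRPS12, at the decoding centre, read 0.13, 0.31 and 0.13 on the GNPs-HDM2 arrays and 0.02, 0.17 and 0.31 on the Control arrays, a difference of 0.02 (adjusted p = 0.907). The groups overlapped fully in this gene mean. MRPS6 differed by -0.40 (adjusted p = 0.0565) and MRPS15 by 0.07 (adjusted p = 0.733). Human cells have 3 relatives of bacterial S18, of which MRPS18B and MRPS18C code for small subunit proteins and MRPS18A for a large subunit one. MRPS18B read -2.08, -2.79 and -0.61 on the GNPs-HDM2 arrays, against 0.20, 0.04 and -0.04 on the Control arrays, and fell by 1.90 (error 0.43, adjusted p = 0.00711). MRPS18C differed by -0.87 (error 0.38, adjusted p = 0.0682), with overlapping groups, and passed as lower with the replicate number as a block (adjusted p = 0.0281). MRPS18A read 0.56, 0.01 and 0.41 on the GNPs-HDM2 arrays, against -0.85, -0.11 and -0.07 on the Control arrays, and rose by 0.67 (error 0.23, adjusted p = 0.0332). The groups of MRPS18A did not overlap, but the call held in only 12 of 21 alternatives. It was lost under median centring (adjusted p = 0.113), quantile normalization (adjusted p = 0.0551), group weights (adjusted p = 0.144) and a fit of both groups alone (adjusted p = 0.0845). Leaving out GNPs-HDM2 replicate 1, Control replicate 1 or any 1 of the 3 GNPs arrays also ended it (adjusted p from 0.0519 to 0.107).

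MRPL20, a large subunit protein with a bacterial counterpart, showed the highest change of all 74 genes. Its values were 0.99, 0.85 and 0.67 on the GNPs-HDM2 arrays, 0.09, -0.11 and 0.04 on the GNPs arrays and -0.14, -0.01 and 0.16 on the Control arrays. All 3 GNPs-HDM2 values were above the other 6, and MRPL20 rose by 0.83 (error 0.16, adjusted p = 0.00381), also under all 21 alternatives. After MRPS18A, the next genes in order, MRPL4 of the exit tunnel (0.32, adjusted p = 0.107), MRPL41 (0.32, adjusted p = 0.204) and MRPL9 (0.27, adjusted p = 0.163), did not pass the test. MRPL43 lay nearest to 0 on the lower side, at -0.04 (adjusted p = 0.826).

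**Figure D2:**
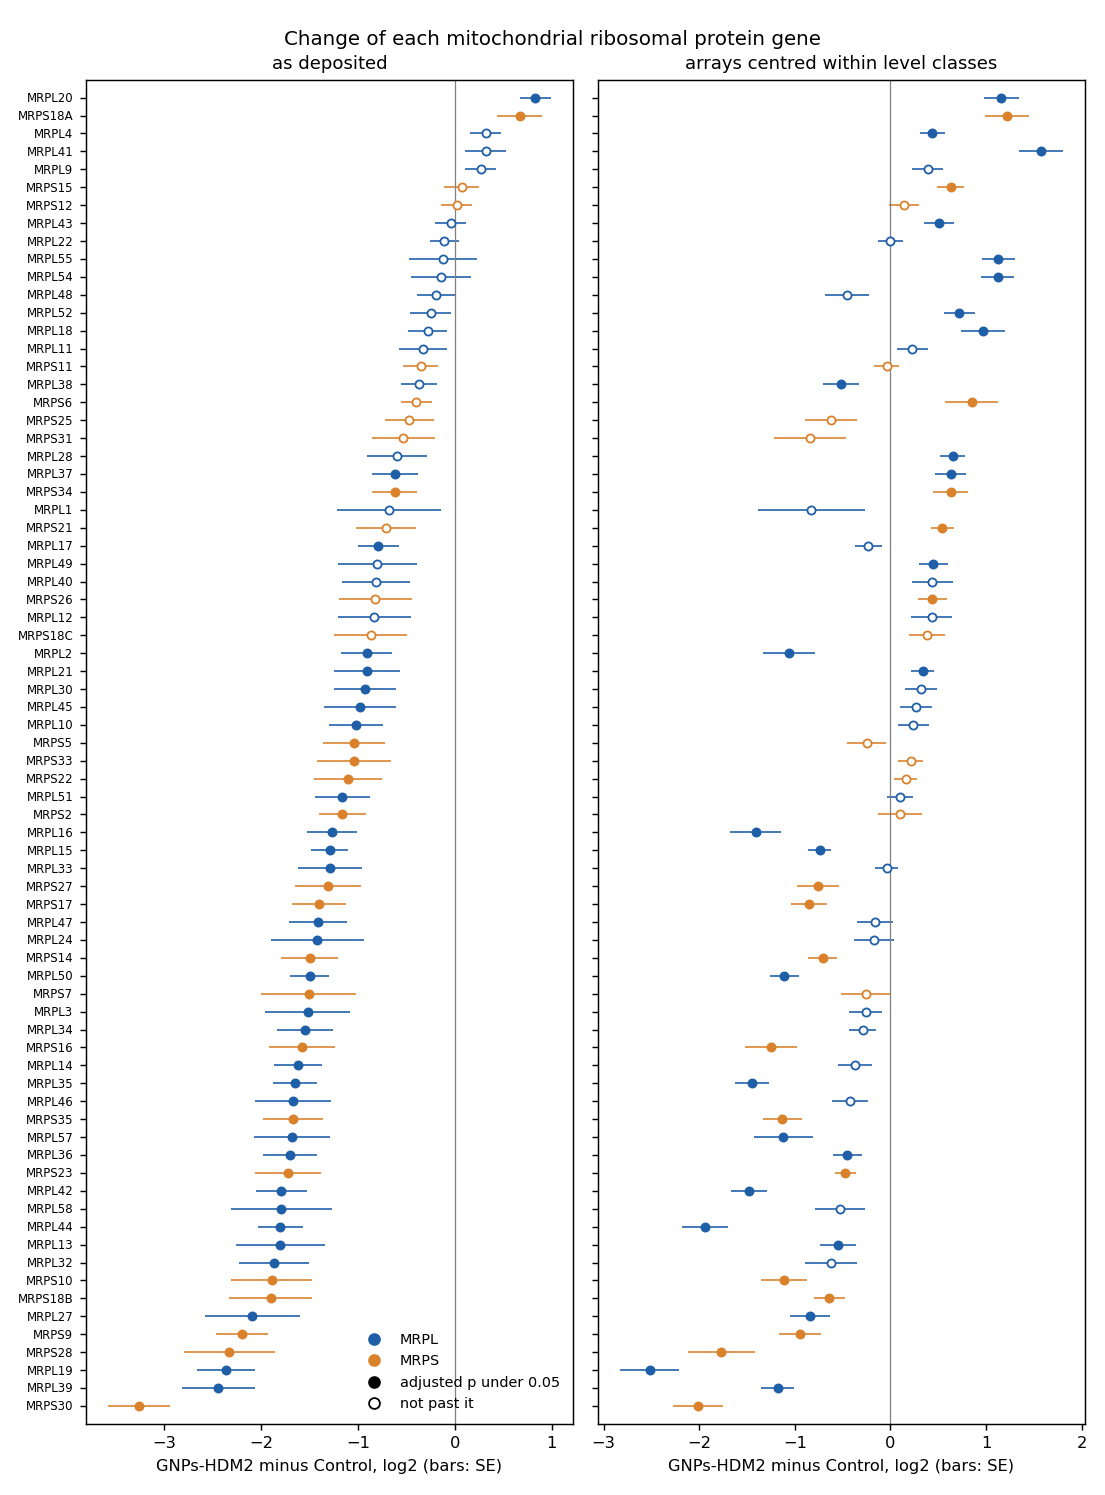
GNPs-HDM2 minus Control for each of the 74 genes (horizontal axis, log2, bars are standard errors), ordered by the deposited change, with the values as deposited on the left and after centring within baseline level classes on the right. Filled points passed the limma test: on the left 46 genes lower and 2 higher, on the right 25 lower and 18 higher.

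Both rises came from a part of the probe sets of the gene. MRPL20 has 3 probe sets. Its 2 probe sets of middle baseline rose by 1.69 (adjusted p = 0.00997) and 1.58 (adjusted p = 0.00273, over all probe sets), while its bright one stood at -1.10, -1.91 and 0.24 on the GNPs-HDM2 arrays, against -0.73, -0.36 and 0.64 on the Control arrays, and differed by -0.77 (adjusted p = 0.211). MRPS18A had a middle probe set that rose by 1.69 (adjusted p = 0.00152) and a bright one at -0.36 (adjusted p = 0.471). The probe sets of each gene thus disagreed in direction. Of all 164 member probe sets, 81 fell and 9 rose against Control, beside 23.7% lower and 24.9% higher over all probe sets. In 16 of the 46 members with more than 1 probe set, every probe set fell. The same count was not made over all genes, so it has no value to be set against.

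Probe sets of 1 gene were called in opposite directions in MRPL22, MRPL43 and MRPS31. MRPL22 had a bright probe set that fell by 1.17 and a dim one that rose by 0.74. In MRPL43, 1 bright probe set fell by 1.05 and 1 middle probe set rose by 0.92, so the gene mean near 0 averages opposite changes. MRPS31 had a middle probe set that fell by 1.71 and a dim one that rose by 0.64. MRPL50 had the widest range, 3.54, from a bright probe set that fell by 3.27 to a dim one at 0.27 (adjusted p = 0.254). MRPS12, whose mean did not differ, had a bright probe set that fell by 1.22 (adjusted p = 0.0192) beside a middle one at 0.46 and a dim one at 0.74. The median range between probe sets of a gene was 0.87 over the 46 members with more than 1. Neither this range nor the number of genes called in opposite directions was worked out over all genes, in any comparison.

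**Figure D3:**
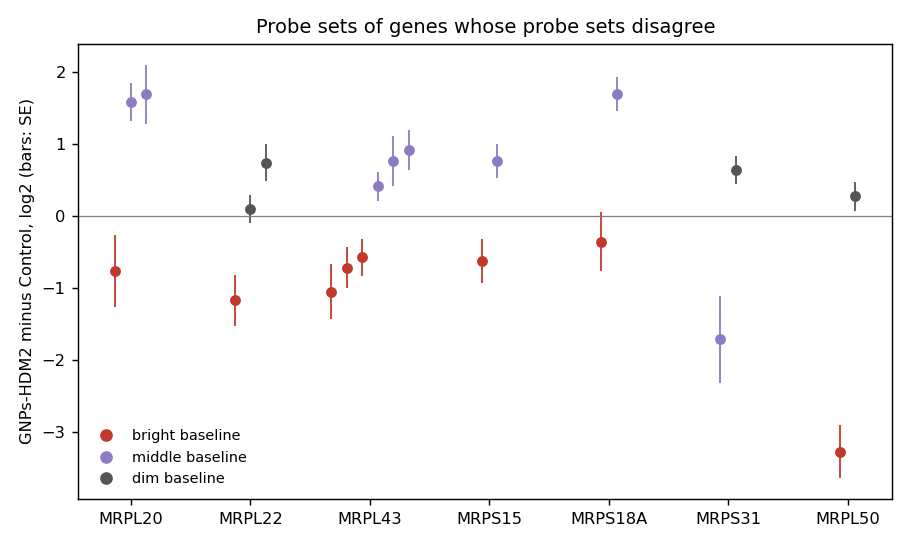
GNPs-HDM2 minus Control (vertical axis, log2, bars are standard errors) of each probe set of MRPL20, MRPL22, MRPL43, MRPS15, MRPS18A, MRPS31 and MRPL50, coloured by baseline level class. In each gene the lowest point is a bright probe set, at -3.27 in MRPL50, except in MRPS31, where it is a middle one at -1.71, and dim or middle probe sets lie above.

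Baseline level was recovered from the step size of the stored numbers, and it moved with the change over the whole array. Probe sets were called bright, middle or dim for a baseline of 8 to 16, 4 to 8 or 1 to 4 on the log2 scale. Bright ones made up 60.4% of the member probe sets (99 of 164) but 15.6% of all probe sets. Between GNPs-HDM2 and Control, the median change was -1.05 for the 99 bright member probe sets and -1.31 for all bright ones. For the 44 middle member probe sets it was -0.37, against 0.19 for all middle ones, and for the 8 dim ones it was 0.69, against 0.49. The 13 unclassed member probe sets had a median of -0.84, against 0.24 for all unclassed ones. The bright members thus lay a little above their class, 38 of 99 below its median, and the middle members below theirs, 32 of 44.

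**Figure D4:**
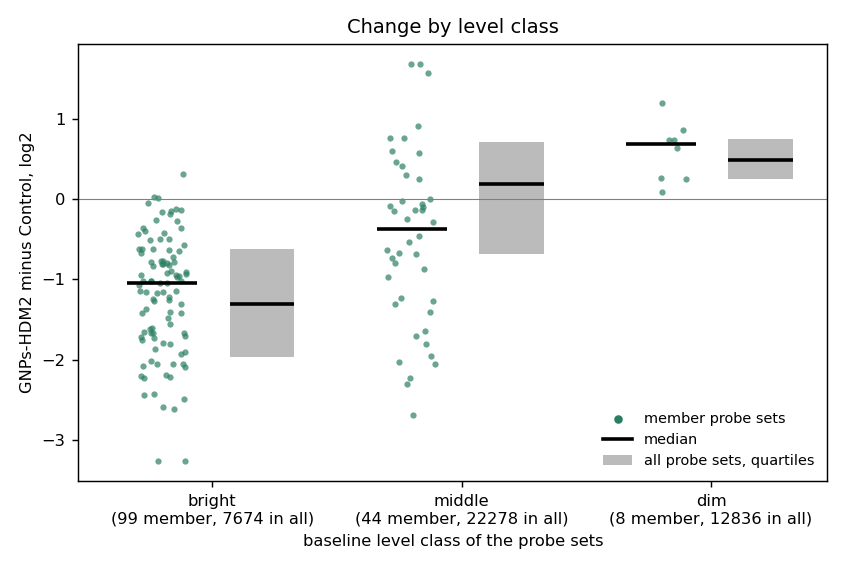
GNPs-HDM2 minus Control (vertical axis, log2) of member probe sets (points) and of all probe sets (grey bars from the lower to the upper quartile), by baseline level class, with black lines at the medians. Bright member probe sets have a median of -1.05 against -1.31 for all bright ones, and middle ones -0.37 against 0.19.

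When each array was centred within these classes, the picture for the group was smaller and more divided. The median change became -0.24, beside 0.07 over all genes, with 25 genes lower and 18 higher, where 22.8% of all genes were lower and 23% higher. On the arrays, the centred member medians were -0.07, -0.16 and -0.07 for GNPs-HDM2, 0.09, 0.01 and 0.10 for GNPs and -0.07, -0.06 and 0.03 for Control. Of the 46 falls, 24 were still lower and 3 were called higher (MRPL21, MRPL37 and MRPS34). The falls of MRPL19 (-2.52), MRPS30 (-2.01), MRPL44 (-1.94), MRPS28 (-1.77) and MRPL39 (-1.18) were called lower with and without the centring. MRPL19 and MRPL44 have no bright probe set, so the centring took no shift of the bright class out of them. Their deposited changes were -2.36 and -1.80. MRPL41, which had a single, bright probe set, went to 1.57 (adjusted p = 0.00141) after centring. Large and small subunit medians were then -0.17 and -0.26, with 14 MRPL genes lower and 12 higher, and 11 MRPS genes lower and 6 higher.

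Gold nanoparticles without the peptide gave no called change in any of the 74 genes, where 0.0221% of all genes (4) were called higher and none lower. At an unadjusted p under 0.05, 1 member was higher (MRPL16) and none lower, against 3.3% of all genes higher. Centring within level classes also called no member, where 0.0386% of all genes were higher, and none of the 164 member probe sets was called, where 0.00811% of all probe sets were higher. The median change of the members was 0.18, beside -0.06 over all genes, and 64 of 74 values were above 0. All 3 GNPs values lay above all 3 Control values in 14 genes (12.4% of all genes) and below them in 1 (21.5%). Large subunit genes had a median of 0.20 and small subunit genes of 0.14. The spread in this fit came from all 9 arrays, the wider GNPs-HDM2 ones included, so changes may be missed. With group weights no member was called either, where 714 of all genes were. The same held for a fit of both groups alone, where 61 of all genes were called. Quantile normalization raised the median to 0.45 and called 7 members higher, among them MRPS16 and MRPS22, where it called 6.97% of all genes higher. It gives all 9 arrays 1 common distribution of the values relative to baseline, so it also changes the spread of each array.

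The highest differences between GNPs and Control were in MRPL1, MRPS28 and MRPS16. MRPL1 read 0.20, -0.10 and 0.24 on the GNPs arrays and -1.22, -1.11 and 0.29 on the Control arrays, a difference of 0.79 (error 0.54, adjusted p = 0.864). Control replicate 3 lay level with the GNPs arrays while the other Control arrays lay low. MRPS28 had the same arrangement, at 0.38, 0.08 and 0.30 on the GNPs arrays and -0.87, -0.43 and 0.29 on the Control arrays, a difference of 0.59 (adjusted p = 0.87). MRPS16 read 0.52, 0.43 and 0.55 on the GNPs arrays and -0.48, -0.01 and 0.22 on the Control arrays, and here the groups did not overlap (difference 0.59, adjusted p = 0.864). Control replicate 3 was the highest Control array in 43 of the 74 genes (58.1%, against 32.5% of all genes), and by over 0.5 in 9 of them. Without it the median difference was 0.27. The lowest differences were -0.24 in MRPS5, -0.23 in MRPL34 and -0.15 in MRPL18, with adjusted p of 0.896, 0.893 and 0.895.

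Set against the nanoparticles without peptide, the conjugate gave lower values in more members. Of the 74 genes 55 fell, 1 rose and 18 did not pass the test, where 29.1% of all genes were called lower and 43.2% higher. The median change was -1.30, beside 0.30 over all genes. The GNPs-HDM2 values lay all below the GNPs values in 52 genes (30.5% of all genes) and all above them in 2 (45.9%). Among the large subunit genes 33 fell and 1 rose (median -1.32), and among the small subunit genes 22 fell and none rose (median -1.29). After centring within level classes the counts were 32 lower and 17 higher, with a median of -0.28, where 27.3% of all genes were lower and 31.9% higher.

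The 5 deepest falls against GNPs were in MRPS30 (-3.29), MRPS28 (-2.92), MRPL39 (-2.54), MRPS9 (-2.50) and MRPL19 (-2.45), with adjusted p of 2.44e-04, 0.00113, 9.27e-04, 3.15e-04 and 4.67e-04. These 5 were also called lower in all 21 alternatives. This comparison shares its GNPs-HDM2 arrays with the one against Control, so the matching order is not separate support. MRPL20 rose by 0.83 (adjusted p = 0.00197). The other members at the high end were not called, with MRPL9 at 0.36 (adjusted p = 0.0608), MRPS18A at 0.27 (adjusted p = 0.309), MRPL4 at 0.26 (adjusted p = 0.169) and MRPS15 at 0.10 (adjusted p = 0.635). On single probe sets, 107 fell and 10 rose, beside 28.3% lower and 36.3% higher over all probe sets, and MRPL20, MRPL43, MRPS15, MRPS18A and MRPS31 had probe sets called in both directions.

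Among genes that work with the mitochondrial ribosome, falls also outnumbered rises between the conjugate and Control, where 25.1% of all genes were lower and 33.1% higher. Of 4 mitoribosomal proteins with other symbols 3 fell (median -1.09), among them DAP3, a GTP-binding small subunit protein (-1.70), and CHCHD1 (-1.44). Of 20 assembly genes 12 fell and 2 rose (median -0.92). TFB1M, which methylates the small subunit RNA, fell by 2.25, and MRM3, which methylates the large subunit RNA, fell by 2.16. ERAL1, a chaperone of the small subunit RNA, rose by 0.83. Of 15 translation factors 9 fell and none rose (median -1.13), with the initiation factor MTIF2 at -2.88, the release factor relative MTRFR at -2.54 and the elongation factor GFM1 at -2.13. Of 8 transcription and DNA maintenance genes 7 fell and none rose (median -1.28), with the polymerase accessory subunit POLG2 at -3.00 and the transcription factor TFB2M at -3.02. Centred within level classes, the medians were -0.31, -0.36, -0.73 and -0.86 in the same order of lists. The centred counts were 2 lower and 1 higher, 7 lower and 1 higher, 10 lower and 3 higher, and 5 lower and none higher, where 22.8% of all genes were lower and 23% higher.

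Cytosolic ribosomal protein genes, the nearest relatives by function, gave a median change of -0.52 in the same comparison. Of 72 such genes 26 fell and 3 rose, and 43 did not pass, where 25.1% of all genes were lower and 33.1% higher. The 3 that rose were RPL39L (1.01), RPL3L (0.77) and RPS4Y2 (1.23). All 3 are variant copies that the symbol rule let in. Their array medians were -0.58, -0.84 and 0.09 on the GNPs-HDM2 arrays, against 0.13, 0.09 and 0.00 on the Control arrays. Centring within level classes turned the sign of the median to 0.51, with 44 genes higher and 1 lower (RPL7L1, another such copy, at -1.17). Over all genes 23% were then higher and 22.8% lower. The median of the mitochondrial genes kept its sign, at -0.24. The difference between these groups of genes was not tested.

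Promoters of 67 of the 74 genes were in the RefSeq table, of which 59 lie at the outermost start that RefSeq gives the gene and 8 at another start. The ETS string CCGGAAG was in 28 of them (41.8%, against 10.7% of 27305 promoters and 14.6% of the 14425 that belong to genes on the array), and the YY1 string AAGATGG in 22 (32.8%, against 6.06% and 6.47%). The NRF1 string GCATGCG was in 7 (10.4%, against 4.13% and 5.18%) and the E-box CACGTG in 6 (8.96%, against 7.43% and 8.82%), both strands searched in each case. The string AAGATGG holds the letters ATG, which also start reading frames, and these windows run past the start of the gene. The median change between GNPs-HDM2 and Control was -0.84 in genes with the ETS string and -1.31 in those without it. It was -1.36 with the YY1 string and -0.87 without it, and these are descriptions of matches, not of bound sites.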

How the data were processed

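RNA of 9 Y79 samples was measured on Affymetrix PrimeView arrays, per the labels. The authors deposited a single table with values read as log2. Log base, summarization and normalization are not given in the sources used here, and fold changes rest on base 2. A baseline per probe set was inferred, because an exact 0 stood on some array for 59.69% of probe sets.

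The table held 49395 probe sets, less 102 array controls. Platform annotation gave 44988 probe sets 1 gene symbol, 1832 several and 2473 none. Single-symbol probe sets were averaged per gene. Group differences came from limma 3.58.1 (2-sided lmFit and eBayes fits) with data.table, version 1.17.8, under R 4.3.3, all 9 arrays in 1 fit, with Benjamini-Hochberg adjustment over 18132 genes, or over 49293 probe sets for single probe sets, at 0.05. The fit assumes an equal spread in all groups. Tested on simulated arrays as unequal in spread as these, its calls included genes simulated without a change, so counts of calls may be too high. For GNPs against Control the fit also takes in the wider spread of the GNPs-HDM2 arrays, so changes there may be missed. Errors are standard errors of the fit unless SD is written.

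Baseline classes came from the step size of the stored numbers, and a probe set was classed where its posterior was at least 0.9 (12836 dim, 22278 middle, 7674 bright, 6505 unclassed). For the centred values each array was set to the median of its class, and unclassed probe sets to the array median.

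The named genes were a list of structural and disease genes, the 6 highest, 6 lowest and 3 nearest 0 against Control, the 3 and 5 at each end of the other comparisons, and genes with probe sets called both ways. Other names were picked with the values in view. The members and lists were chosen with earlier results of these data known. Deviations of same-numbered GNPs-HDM2 and Control arrays had weak positive correlations (r = 0.156, 0.107 and 0.29). Unlike-numbered arrays were not compared, and the labels state no pairing. The main fit used no pairing, and the replicate number entered as a block only in an alternative. The alternatives were other array scalings, probe set choices, fits and arrays left out. Counts out of 21 alternatives include the reading as natural logs, which rescaled every value alike and could not change a call. They also include the probe set choices, which leave a gene with a single bright and specific probe set at the same values. Such counts therefore overstate the number of separate checks.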

Additional observations from a re-analysis of the deposited data

How the results depend on the processing

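Against Control, the conjugate gave called changes in 48 members as reported and in 17 after quantile normalization. The median change was -0.24 after centring within level classes, and -0.20 when GNPs-HDM2 replicate 3 was also left out, an alternative chosen after seeing the data. Leaving out 1 array at a time gave 34 to 65 called members and medians of -1.43 to -0.74, with a large minus small difference of -0.01 to 0.17. The same fits called 6524 to 14045 of all 18132 genes. For GNPs against Control, quantile normalization gave 7 called members, a median of 0.45 and a large minus small difference of 0.12, natural logs gave a median of 0.26, and leaving out 1 array gave 0 called members, medians of 0.14 to 0.27 and differences of 0.03 to 0.07. Against GNPs, the conjugate gave medians of -0.28 within level classes and -0.31 without GNPs-HDM2 replicate 3 as well. Leaving out 1 array gave 48 to 66 called members, medians of -1.69 to -0.98 and differences of -0.06 to 0.08. Those fits called 10770 to 15048 of all genes, and 2 to 15 of all genes for GNPs against Control. Over all genes 10566 were called for GNPs-HDM2 against Control, but 1927 after quantile normalization, 6699 with group weights and 6439 with the arrays of both groups alone. For GNPs against Control the 4 calls became 2780 after quantile normalization, 714 with group weights, 61 with the arrays of both groups alone, 7 within level classes, 2 with the most specific probe sets and 0 with trend and robust variance. The cause of these moves was not tested. The replicate block gave 49 members lower and 2 higher against Control, and changed the calls of MRPL12 and MRPS18C alone among the named members. Over all genes it gave 4626 lower and 5817 higher. For the other comparisons the r of same-numbered arrays ran from -0.056 to 0.103. There the block gave 0 called members for GNPs against Control and 57 lower and 1 higher for GNPs-HDM2 against GNPs. Over all genes it called 3 in the first, and 5299 lower and 7655 higher in the second.

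Signs turned in some members, MRPL10 and MRPS22 among them, which were called lower as deposited. Against Control, quantile normalization gave 0.04 for MRPL10, 0.12 for MRPL11, 0.03 for MRPL43, 0.08 for MRPS18C, 0.14 for MRPS22, 0.07 for MRPS6 and -0.22 for MRPS12. Level classes gave 0.24 for MRPL10, 0.23 for MRPL11, 0.43 for MRPL12, 0.51 for MRPL43, 0.38 for MRPS18C, 0.16 for MRPS22 and 0.85 for MRPS6, and with GNPs-HDM2 replicate 3 also left out these were 0.35, 0.20, 0.50, 0.63, 0.40, 0.14 and 1.20. Median centring gave -0.14 for MRPS12 and -0.09 for MRPS15. Dropping dim probe sets gave -0.04 for MRPL9 and -0.22 for MRPS12, and the most specific probe sets gave 0.38 for MRPL43 and -0.01 for MRPS12. Leaving out single arrays gave -0.13 to 0.07 for MRPL43 (0.02 without Control replicate 1), -0.05 to 0.09 for MRPS12 (-0.04 without GNPs-HDM2 replicate 2) and -0.11 to 0.19 for MRPS15. For MRPS15 against GNPs, median centring gave -0.07, quantile normalization -0.01 and leaving out single arrays -0.08 to 0.21.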

Other observations

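The 3 genes without a probe set of their own can be read only together with another gene entry. The probe set that lists MRPL23 for more than 1 gene entry stood at -0.55, -1.12 and 0.06 on the GNPs-HDM2 arrays, 0.45, 0.19 and 0.52 on the GNPs arrays and -0.84, -0.18 and 0.35 on the Control arrays. It differed from Control by -0.32 (adjusted p = 0.455) and fell against GNPs by 0.93 (limma adjusted p = 0.0399). The probe sets shared by MRPL53 and CCDC142 differed from Control by 0.03 and -0.03, and the one shared by MRPS24 and URGCP-MRPS24 by -0.46 (adjusted p = 0.171).

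The change of the members varied weakly with the length of the gene, to about the extent seen over all genes. Across the 74 genes the change between GNPs-HDM2 and Control had a Spearman rho of -0.225 and a Pearson r of -0.222 with gene length in RefSeq, beside a rho of -0.208 over 18109 genes. The 37 shorter members had a median change of -0.87 and the 37 longer ones of -1.29. Centred within level classes, the medians were 0.10 for the shorter and -0.45 for the longer members, and the rho was -0.324, beside -0.292 over all genes. These are correlations across genes that share the same arrays, and genes are not independent replicates. With promoter GC content the rho of the members was 0.03 over 67 genes, beside -0.22 over 14425 genes. Centred within level classes, it was 0.18 for the members and -0.12 over all genes.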
